A study of Mus musculus with 15 samples.

Results

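The genes described here act in the last stretch of the cell cycle, from entry into mitosis to the separation of the daughter cells. They were chosen by name, as 40 genes of mitosis and the G2/M transition, and 38 of them were read by at least 1 probe set among the 18194 genes on the arrays. Ccnb1, cyclin B1, was not analysed here, and Sgol1, shugoshin, is listed by the platform under its current symbol Sgo1 and is given with the related genes. Each gene was represented by its probe set with the highest mean.

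The samples, 15 in all with 1 array each, were LSK cells (lineage-negative, Sca1- and Kit-positive blood stem and progenitor cells) of C57BL6 mouse bone marrow. The protocol is the same for all samples, the wt/wt controls included: a retrovirus encoding Cre and GFP, culture in Stemspan medium with mSCF, mTpo and mFlt3L, and a sort for GFP. The groups were wt/wt (arrays 1 to 6), Apc 15lox/15lox (3 arrays), 15lox/1638N (3) and 15lox/1572T (3), where 15lox is the floxed allele of Apc and 1638N and 1572T are hypomorphic alleles. Apc is a scaffold of the complex that restrains beta-catenin, and the series asks what Wnt signals do in blood-forming cells. Cre came from a virus rather than from a cell type promoter, so the groups depend on the cells that took up and kept the virus, and ages are not given. Nothing in the labels ties replicates to separate animals, and the p-values then speak of the spread among these arrays, which may be technical. In bulk samples, fewer cells of a type and less RNA per cell cannot be told apart.

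Mitotic genes are transcribed in a wave that peaks in G2 and M. In resting cells the DREAM complex holds them down, and in cycling cells the MuvB core joins B-Myb and then FoxM1 to switch them on, through promoter elements called CCAAT boxes and CHR elements. Blood stem cells at rest express little of this programme, while progenitors driven by cytokines express much of it, so its level is widely used as a sign of proliferation.

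The controls were wt/wt arrays 4 to 6. On wt/wt arrays 1 to 3 the mean of all 38 mitotic genes lay within 0.05 of that on arrays 4 to 6, as it did for 96.6% of all genes, and 8 of the 38 (21.1%) held exactly the same deposited value, which is rounded to 4 significant digits, on all 3 of these arrays (Cdc20 at 12.31, for example), beside 16.6% of all genes. On arrays 4 to 6 this held for 0 of 38 and for 6 of 18194 genes. These 3 arrays are therefore not independent of the others and are shown only as alternatives. Values are log2, array medians ran from 6.65 to 6.84, and 3 arrays a group limit the precision of each difference. The LSK gene Kit averaged 11.09 to 11.42 and Cd34 13.34 to 13.55 over the 4 groups. Other LSK genes were less even. Differences from wt/wt among the 9 measured ran from -0.24 to 0.87 in 15lox/15lox and -0.34 to 0.24 in 15lox/1638N. In 15lox/1572T they ran from -0.56 to 0.66, and 0 of the 9 were called in any of the 3. The mean of the 9 had an SD between arrays of 0.4 in 15lox/1572T, beside 0.1 in wt/wt. Of the Apc probe sets, the one highest in wt/wt averaged 9.75 there, 5.79 in 15lox/15lox, 8.55 in 15lox/1638N and 8.82 in 15lox/1572T, and the one used for Apc by the rule of highest mean averaged 9.68, 10.45, 9.86 and 10.20. Axin2, a direct Wnt target, averaged 7.40, 12.17, 11.26 and 8.61 in the same order. Monocyte markers (7 genes) had a mean level of 10.17 to 10.41 on the wt/wt arrays and 10.62 to 11.53 on the mutant arrays, and dendritic cell markers (7 genes) 10.39 to 11.66 and 8.46 to 10.44. Of the monocyte markers 3, 3 and 1 rose in 15lox/15lox, 15lox/1638N and 15lox/1572T, and of the dendritic markers 1, 4 and 0 fell, where 2.55%, 3.47% and 0.110% of all genes were called. T cell markers (5 genes) had means of 5.4 to 5.56 on wt/wt arrays 4 to 6 and 4.96 to 5.13 on the mutant arrays, with 1 gene, Cd3g, lower in each comparison. B cell markers (6 genes) had means of 7.10 to 7.31 and 6.38 to 7.14, with 1, 2 and 0 lower, 1 of 8 stroma and endothelium markers was higher in 15lox/15lox, and 1 of 9 neutrophil markers in 15lox/1638N. Their part in the results below was not tested.

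The mitotic programme was expressed at a nearly constant level in all 4 genotypes. The mean of the 38 genes was 11.80, 11.89 and 11.68 on wt/wt arrays 4 to 6. It was 11.78, 11.73 and 11.65 on the 3 arrays of 15lox/15lox. On the arrays of 15lox/1638N it was 11.68, 11.77 and 11.71. The highest array was a wt/wt one, and the ranges of all 4 groups overlapped. In 15lox/1572T the mean was 11.56, 11.78 and 11.71, the first being the lowest of the 12 arrays. The differences from wt/wt in this mean were -0.07 for 15lox/15lox, -0.07 for 15lox/1638N and -0.11 for 15lox/1572T, while its SD between arrays of a group was 0.05 to 0.11 (n = 3 each).

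**Figure D1:**
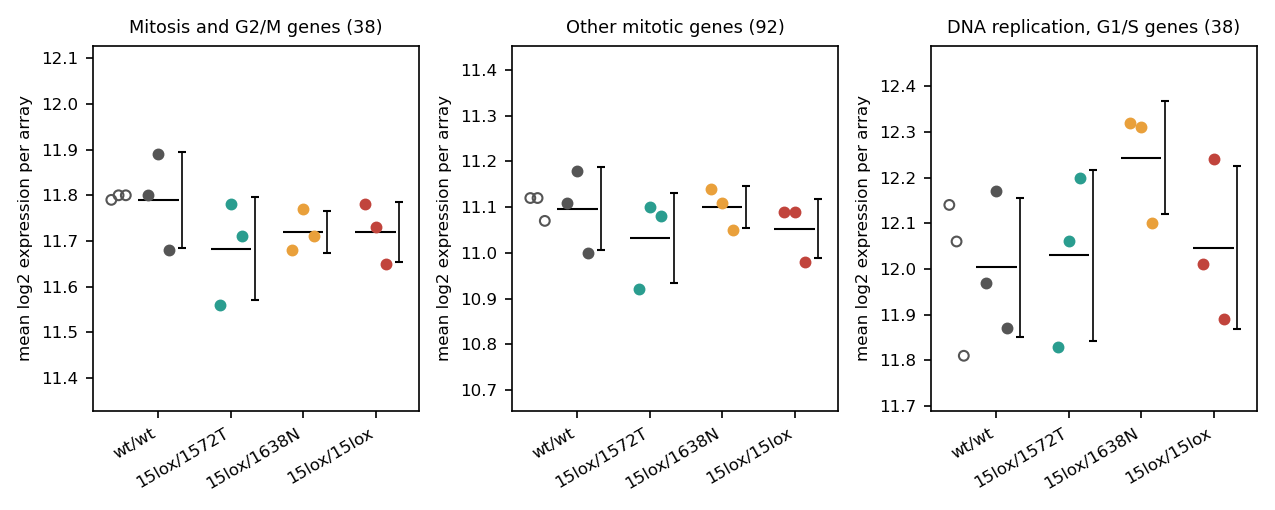
Mean log2 expression per array of the 38 mitosis and G2/M genes, of 92 other mitotic genes and of 38 DNA replication and G1/S genes, by Apc genotype. Filled points are arrays, bars are the group mean and SD (n = 3), and open circles are wt/wt arrays 1 to 3, which are not in the comparison; for the 38 mitosis genes all groups overlap between 11.56 and 11.89.

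Single genes gave the same picture. With limma, 0 of the 38 passed an adjusted p under 0.05 in 15lox/15lox against wt/wt, where 2.55% of all genes did. In 15lox/1638N 0 of 38 passed, beside 3.47% of all genes, and in 15lox/1572T 0 of 38, beside 0.110%. Between the mutant genotypes 0 of 38 passed as well, beside 0.418% of all genes for 15lox/15lox against 15lox/1638N, 1.63% for 15lox/15lox against 15lox/1572T and 0.352% for 15lox/1638N against 15lox/1572T. At an unadjusted p under 0.05, 1 gene was lower in 15lox/15lox (7.77% of all genes), 5 in 15lox/1638N (13.6%) and 4 in 15lox/1572T (5.86%), and 0 were higher (4.35%, 6.19% and 2.06% of all genes). The median difference of the 38 was -0.06, -0.08 and -0.08 in that order, beside -0.05, -0.03 and -0.03 over all genes. Of the 38, 25 lay below 0 in 15lox/15lox (62.5% of all genes), 27 in 15lox/1638N (57.2%) and 33 in 15lox/1572T (57.2%).

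The arrays were precise enough to bound these differences for the probe sets used. Other probe sets of the same genes have no interval here, and some spread more from array to array. In each of the 3 comparisons with wt/wt the 95% interval of 37 of the 38 genes lay within a 2-fold change in either direction, beside 93.4%, 90.3% and 95.3% of all genes for 15lox/15lox, 15lox/1638N and 15lox/1572T. The exception each time was Kif15, a spindle kinesin, whose probe set averaged 6.32, close to the array medians, and ranged over 1.62. Within a 1.5-fold change lay the intervals of 35, 33 and 34 of the 38, beside 75.3%, 69.7% and 78.4% of all genes. The other 37 genes read 9 or more on every array.

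**Figure D2:**
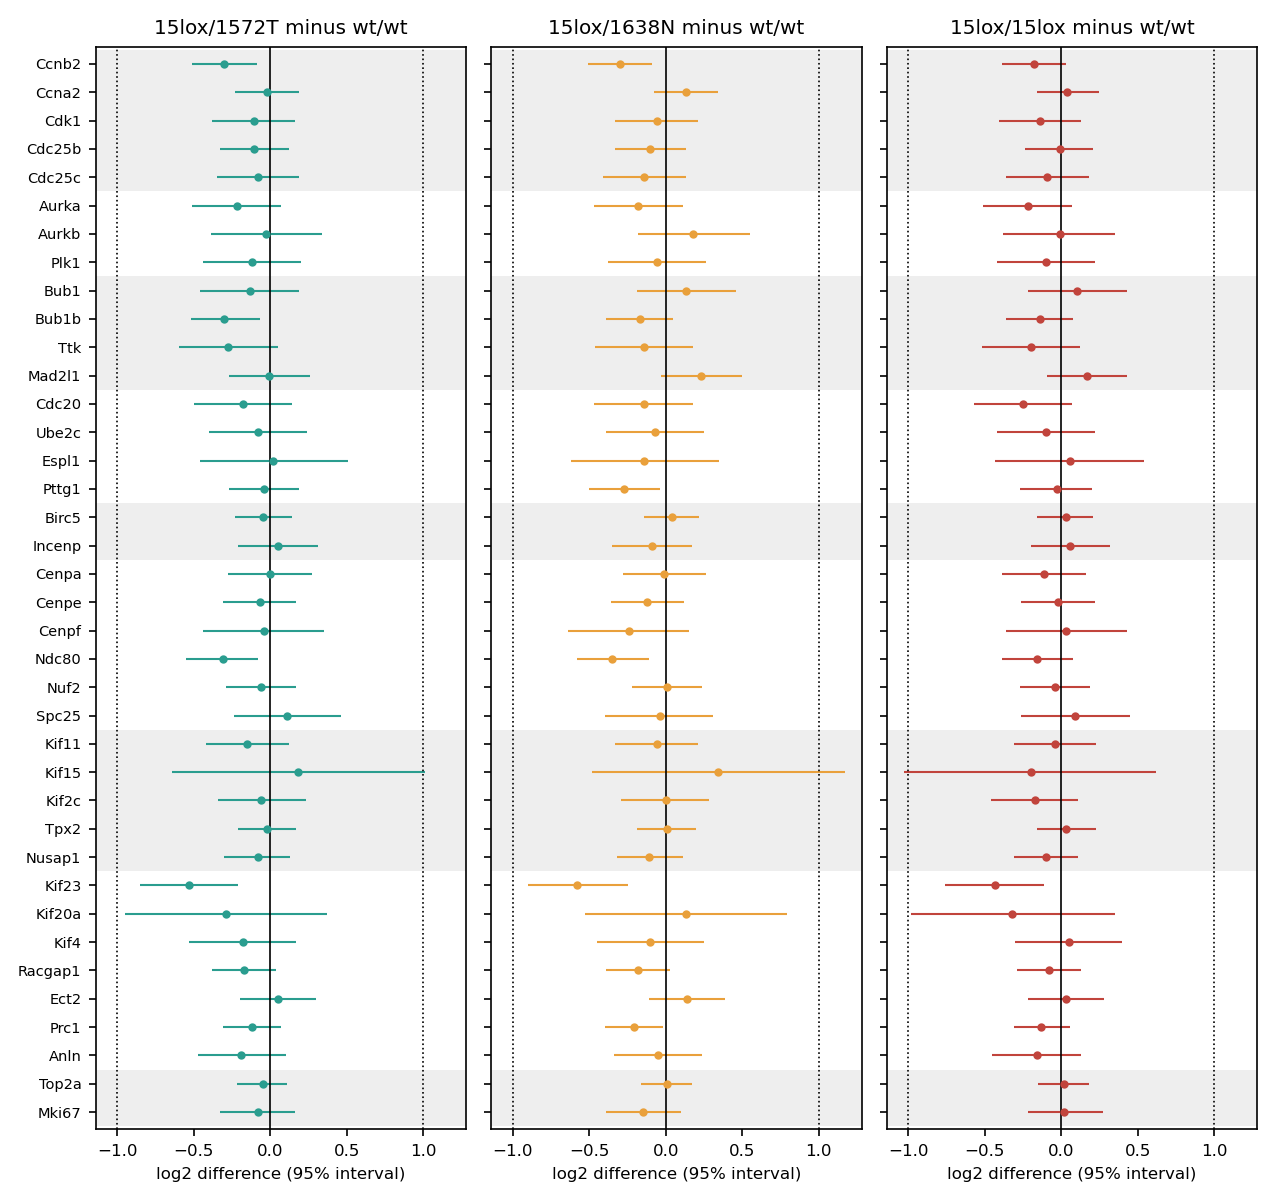
Difference in log2 expression between each mutant genotype and wt/wt for the 38 measured genes, with the 95% interval from limma, ordered by role (shaded bands). Dotted lines mark a 2-fold change, which only the interval of Kif15 reaches in each panel; Kif23 is the lowest point in all 3.

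Genes of mitotic entry differed little. Cdk1, the kinase that drives mitosis, read 13.10, 13.25 and 12.88 in wt/wt and 13.14, 12.89 and 12.78 in 15lox/15lox. In 15lox/1638N it read 12.91, 13.13 and 13.02, and in 15lox/1572T 12.86, 12.98 and 13.05. All 4 groups overlapped, and the interval of its difference from wt/wt ran from -0.41 to 0.13 in 15lox/15lox. Ccnb2, cyclin B2 and a partner of Cdk1, read 12.68, 12.77 and 12.59 in wt/wt, 12.53, 12.41 and 12.56 in 15lox/15lox, 12.27, 12.36 and 12.51 in 15lox/1638N, and 12.28, 12.49 and 12.36 in 15lox/1572T. Its 9 mutant arrays all lay below its 3 wt/wt arrays, by 0.18 ± 0.10 (SE) on average in 15lox/15lox and 0.30 ± 0.10 in both hypomorphs, with adjusted p = 0.514, 0.114 and 0.420 in 15lox/15lox, 15lox/1638N and 15lox/1572T. The 3 comparisons share their wt/wt arrays. Ccna2, cyclin A2, had differences of 0.04, 0.13 and -0.02 in that order, and Cdc25b and Cdc25c, the phosphatases that activate Cdk1, lay between -0.14 and -0.01.

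The mitotic kinases varied more between arrays of a genotype than between genotypes. Plk1, which triggers mitotic entry and centrosome maturation, read 11.26, 11.47 and 10.95 in wt/wt, 11.27, 11.07 and 11.04 in 15lox/15lox, 10.95, 11.30 and 11.26 in 15lox/1638N, and 10.94, 11.14 and 11.24 in 15lox/1572T. Its lowest wt/wt array lay beside its lowest hypomorph arrays. Aurka, the spindle pole kinase, read 11.61, 11.84 and 11.40 in wt/wt and 11.54, 11.41 and 11.23 in 15lox/15lox. In 15lox/1638N it read 11.30, 11.44 and 11.56, and in 15lox/1572T 11.27, 11.55 and 11.37. Its differences were -0.22, -0.18 and -0.22, each with an interval that holds 0. Aurkb, the kinase of the chromosomal passenger complex, had differences of -0.01, 0.18 and -0.03. The passenger subunits Birc5 (survivin) and Incenp stayed between -0.09 and 0.06. Birc5 read 13.55, 13.61 and 13.40 in wt/wt, 13.53, 13.53 and 13.58 in 15lox/15lox, 13.56, 13.55 and 13.57 in 15lox/1638N, and 13.38, 13.55 and 13.49 in 15lox/1572T.

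Among spindle checkpoint genes Bub1b, which encodes BubR1, read 12.25, 12.40 and 12.26 in wt/wt and 11.94, 12.18 and 11.90 in 15lox/1572T, a difference of -0.30 ± 0.10 (SE, adjusted p = 0.467). These groups did not overlap. Its values of 12.21, 12.27 and 12.01 in 15lox/15lox did overlap with wt/wt. In 15lox/1638N it read 12.14, 12.14 and 12.12, below the wt/wt arrays with a difference of -0.17. Another Bub1b probe set, at a mean of 11.84, gave -0.15, -0.12 and -0.34 in 15lox/15lox, 15lox/1638N and 15lox/1572T. One at a mean of 8.60 gave -0.23, -0.13 and -0.06. With both of these, each hypomorph overlapped with wt/wt. The checkpoint kinase Bub1 read 11.74, 11.90 and 11.34 in wt/wt, a range that holds all 9 mutant arrays. Mad2l1, which encodes Mad2, an inhibitor of Cdc20, read 12.06, 12.19 and 12.04 in 15lox/1638N, above 12.02, 11.96 and 11.61 in wt/wt (difference 0.23, adjusted p = 0.315). Ttk, the kinase Mps1, had differences of -0.20, -0.14 and -0.28 in 15lox/15lox, 15lox/1638N and 15lox/1572T.

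Exit from mitosis runs through Cdc20, the activator of the anaphase-promoting complex. It read 12.35, 12.56 and 12.02 in wt/wt, 12.23, 12.12 and 11.83 in 15lox/15lox, 12.01, 12.24 and 12.25 in 15lox/1638N, and 12.01, 12.20 and 12.18 in 15lox/1572T. Wild-type array 6 lay among the mutant arrays, so the groups overlapped, and the differences were -0.25, -0.14 and -0.18. Pttg1, securin, which holds separase in check, read 12.86, 12.87 and 12.91 in 15lox/1638N, below 13.05, 13.07 and 13.33 in wt/wt (difference -0.27 ± 0.11, SE, adjusted p = 0.184). In 15lox/15lox it read 13.11, 13.09 and 13.15, above all arrays of 15lox/1638N by 0.24 on average (adjusted p = 0.467). In 15lox/1572T it read 13.04, 12.98 and 13.31, and did not differ from wt/wt beyond the spread. Another probe set of Pttg1, at a mean of 11.25, gave -0.12, -0.13 and -0.08 in 15lox/15lox, 15lox/1638N and 15lox/1572T. One at a mean of 8.05 gave -0.29, -0.17 and 0.02. In both, the arrays of 15lox/15lox overlapped with those of 15lox/1638N. Ube2c, the ubiquitin-conjugating enzyme of the complex, had differences of -0.10, -0.07 and -0.08, and Espl1, separase, 0.06, -0.14 and 0.02, with arrays of 15lox/1572T spread over 9.55, 9.96 and 10.68.

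At the kinetochore, Ndc80, the microtubule-binding subunit, read 10.64, 10.77 and 10.55 in wt/wt and 10.29, 10.42 and 10.21 in 15lox/1638N (difference -0.35 ± 0.11, SE, adjusted p = 0.105). In 15lox/1572T it read 10.21, 10.43 and 10.38 (difference -0.31, adjusted p = 0.472). Both hypomorph groups lay below wt/wt without overlap, while 15lox/15lox at 10.59, 10.32 and 10.58 overlapped with it. Its partners Nuf2 (-0.04, 0.01 and -0.06 in 15lox/15lox, 15lox/1638N and 15lox/1572T) and Spc25 (0.09, -0.04 and 0.11) gave smaller values by the probe sets used. Another Spc25 probe set, at a mean of 7.14, gave -0.48, -0.11 and -0.11. With it, all arrays of 15lox/15lox lay below those of wt/wt. Cenpa, the histone of centromeres, lay between -0.11 and 0.00, and Cenpe, a kinetochore motor, between -0.12 and -0.02. Cenpf, a large kinetochore protein of G2, had differences of 0.03, -0.24 and -0.04.

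By the probe sets used, spindle motors and assembly factors stayed within narrow bounds apart from Kif15. Kif11, which pushes spindle poles apart, had differences of -0.04, -0.06 and -0.15 in the same order of genotypes. The microtubule depolymerase Kif2c gave -0.17, 0.00 and -0.06, the Aurka activator Tpx2 0.03, 0.01 and -0.02, and the spindle protein Nusap1 -0.10, -0.11 and -0.08. Some other probe sets differed more. For Kif2c, one at a mean of 9.54 gave -0.26, -0.01 and -0.45, with all arrays of 15lox/1572T below those of wt/wt. Those at 8.04 and 7.47 gave -0.21, -0.01 and -0.31, and -0.19, 0.00 and -0.14. For Kif11, one at 10.59 gave 0.01, 0.13 and -0.08, and one at 9.59 gave -0.28, 0.01 and -0.39. Of the genes of chromosome structure, Top2a, topoisomerase II alpha, had the narrowest range of the 38, 0.17 over the 12 arrays. It read 13.23, 13.30 and 13.19 in wt/wt, 13.26, 13.31 and 13.20 in 15lox/15lox, 13.26, 13.28 and 13.20 in 15lox/1638N, and 13.14, 13.24 and 13.18 in 15lox/1572T. Mki67, the proliferation antigen Ki-67, read 12.98, 13.21 and 13.27 in wt/wt, 13.16, 13.25 and 13.12 in 15lox/15lox, 12.93, 13.23 and 12.86 in 15lox/1638N, and 13.06, 13.13 and 13.02 in 15lox/1572T. By these probe sets neither marker separated any genotype from wt/wt. Another Top2a probe set, at a mean of 8.19, gave 0.07, 0.48 and 0.29 in 15lox/15lox, 15lox/1638N and 15lox/1572T. With it, all arrays of 15lox/1638N lay above those of wt/wt. One at a mean of 4.68 gave -0.09, 0.02 and -0.07.

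The largest differences from wt/wt were in cytokinesis, at Kif23, the kinesin of the centralspindlin complex. Kif23 read 11.92, 12.30 and 11.75 in wt/wt. It read 11.71, 11.53 and 11.43 in 15lox/15lox, 11.36, 11.42 and 11.46 in 15lox/1638N, and 11.22, 11.52 and 11.64 in 15lox/1572T. All 9 mutant arrays lay below all 3 wt/wt arrays. The difference was -0.43 ± 0.15 in 15lox/15lox, -0.58 ± 0.15 in 15lox/1638N and -0.53 ± 0.15 in 15lox/1572T (SE), that is 1.35-, 1.49- and 1.44-fold lower, with adjusted p = 0.224, 0.0582 and 0.324, so no call was made. Of its other probe sets, one at a mean of 9.88 gave -0.48, -0.51 and -0.70, and one at a mean of 5.41 gave -0.03, 0.26 and 0.13. Racgap1, its partner in centralspindlin, had differences of -0.08, -0.18 and -0.17, and Ect2, which centralspindlin recruits to the cell's middle, 0.03, 0.14 and 0.05. Prc1, which bundles the central spindle, gave -0.13, -0.21 and -0.12, Kif4 0.05, -0.10 and -0.18, and the contractile ring protein Anln -0.16, -0.05 and -0.19. Kif20a, a motor of the central spindle, spread over 1.57 and read as low as 10.18 on array 3 of 15lox/15lox.

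Values wholly apart from wt/wt were about as common or less common here than among all genes. In 15lox/15lox 2 of 38 (Ccnb2 and Kif23) lay wholly below wt/wt, 5.26% beside 12.1% of all genes, and 0 wholly above, beside 6.13%. In 15lox/1638N 6 did (Ccnb2, Bub1b, Kif23, Ndc80, Prc1 and Pttg1), 15.8% beside 18.6%, and Mad2l1 lay wholly above, 2.63% beside 10.2%. In 15lox/1572T 4 did (Ccnb2, Bub1b, Kif23 and Ndc80), 10.5% beside 9.91%, and 0 lay above, beside 4.02%. With all 6 wt/wt arrays in the fit 5 genes were called lower in 15lox/1638N (Kif23, Ndc80, Ccnb2, Pttg1 and Prc1), 13.2% beside 10% of all genes, and their adjusted p of 0.00807 to 0.0459 rests on control arrays that are not independent.

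**Figure D3:**
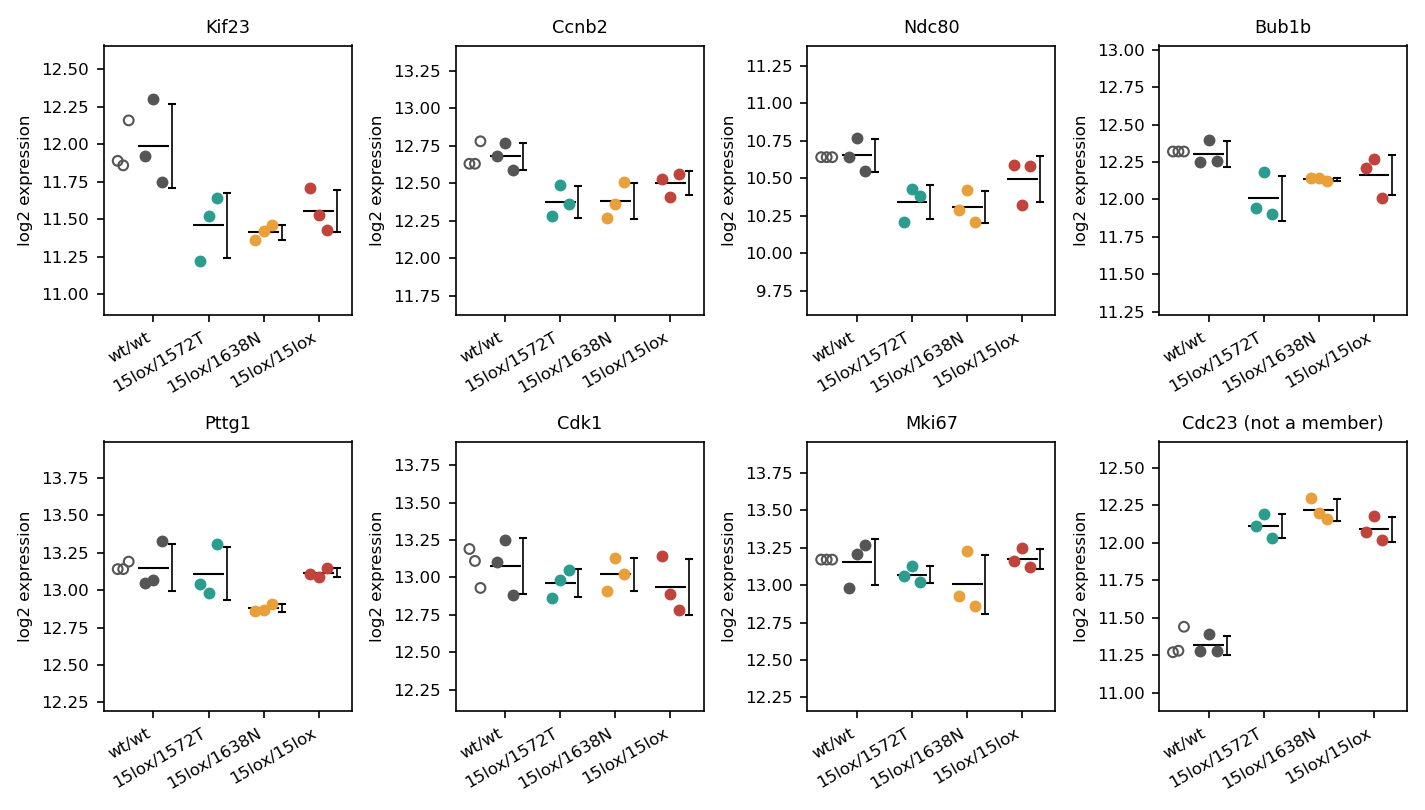
Log2 expression on each array, with group mean and SD (n = 3), of Kif23, Ccnb2, Ndc80, Bub1b, Pttg1, Cdk1, Mki67 and Cdc23; all axes span 1.8 log2 units and open circles are wt/wt arrays 1 to 3. Kif23 and Ccnb2 lie lower on all 9 mutant arrays, Cdk1 and Mki67 overlap, and Cdc23 lies 0.77 to 0.90 higher in the mutants.

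Between the mutant genotypes no mitotic gene passed the test. Against 15lox/1638N, 15lox/15lox ran from -0.55 for Kif15 and -0.45 for Kif20a to 0.28 for Cenpf. Against 15lox/1572T it ran from -0.39 for Kif15 and -0.12 for Kif2c to 0.23 for Kif4 and 0.24 for Bub1. The hypomorphs differed from each other by between -0.23 (Pttg1) and 0.42 (Kif20a). At an unadjusted p under 0.05, Pttg1 alone was higher in 15lox/15lox than in 15lox/1638N (6.84% of all genes) and 0 were lower (3.77%). There were 0 higher and 0 lower in 15lox/15lox against 15lox/1572T (5.45% and 3.92%), and 0 and 0 in 15lox/1638N against 15lox/1572T (3.74% and 5.5%). Without overlap, Espl1 and Pttg1 were higher and Kif2c lower in 15lox/15lox than in 15lox/1638N (7.26% and 7.67% of all genes). The other probe sets of Pttg1 and Kif2c overlapped between these genotypes, as did those of Pttg1 between the hypomorphs. Against 15lox/1572T, 0 genes of 15lox/15lox lay apart (6.11% higher and 5.36% lower), while in 15lox/1638N Kif20a and Mad2l1 were higher and Pttg1 lower (6.96% and 7.16%). Differences lay below 0 for 18, 13 and 14 of the 38, beside 51.7%, 55.8% and 52.4% of all genes. The intervals of 36, 37 and 37 of the 38 genes in these comparisons lay within a 2-fold change.

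The genes varied together from array to array. After the mean of each genotype was removed, the median Pearson correlation over the 703 pairs of the 38 genes was 0.27 and 68.7% of pairs were above 0, beside 0.03 and 52.8% over all gene pairs (12 arrays; pairs share arrays and array quality). Aurka, Cdc20 and Anln followed the mean of the other genes most closely, each with r = 0.87, then Kif23 and Cdk1 with r = 0.85. Like the rest of the 38, these are genes of G2 and mitosis. They were high on wt/wt array 5 and low on wt/wt array 6. Others ran against the mean of the other genes, with r = -0.46 for Ect2 and -0.41 for Pttg1. Tpx2 (-0.21), Cenpf (-0.20), Cdc25b (-0.18) and Nusap1 (-0.17) also did, and Spc25, Incenp and Prc1 lay between -0.03 and 0.02. The difference between the 3' and 5' control probe sets of Actb, a measure of RNA integrity, was 0.57, 0.68 and 0.69 on wt/wt arrays 4 to 6, 1.02 on array 3 of 15lox/15lox and 0.45 on array 1 of 15lox/1572T, which had the 2 lowest mitotic means; its part was not tested. The 4 mutant arrays with high Xist had means of 11.56 to 11.73 (Xist of 13.75 to 14.02) and the other 5 of 11.68 to 11.78 (7.71 to 7.98), and wt/wt arrays 4 to 6 read 7.5 to 7.73 for Xist.

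**Figure D4:**
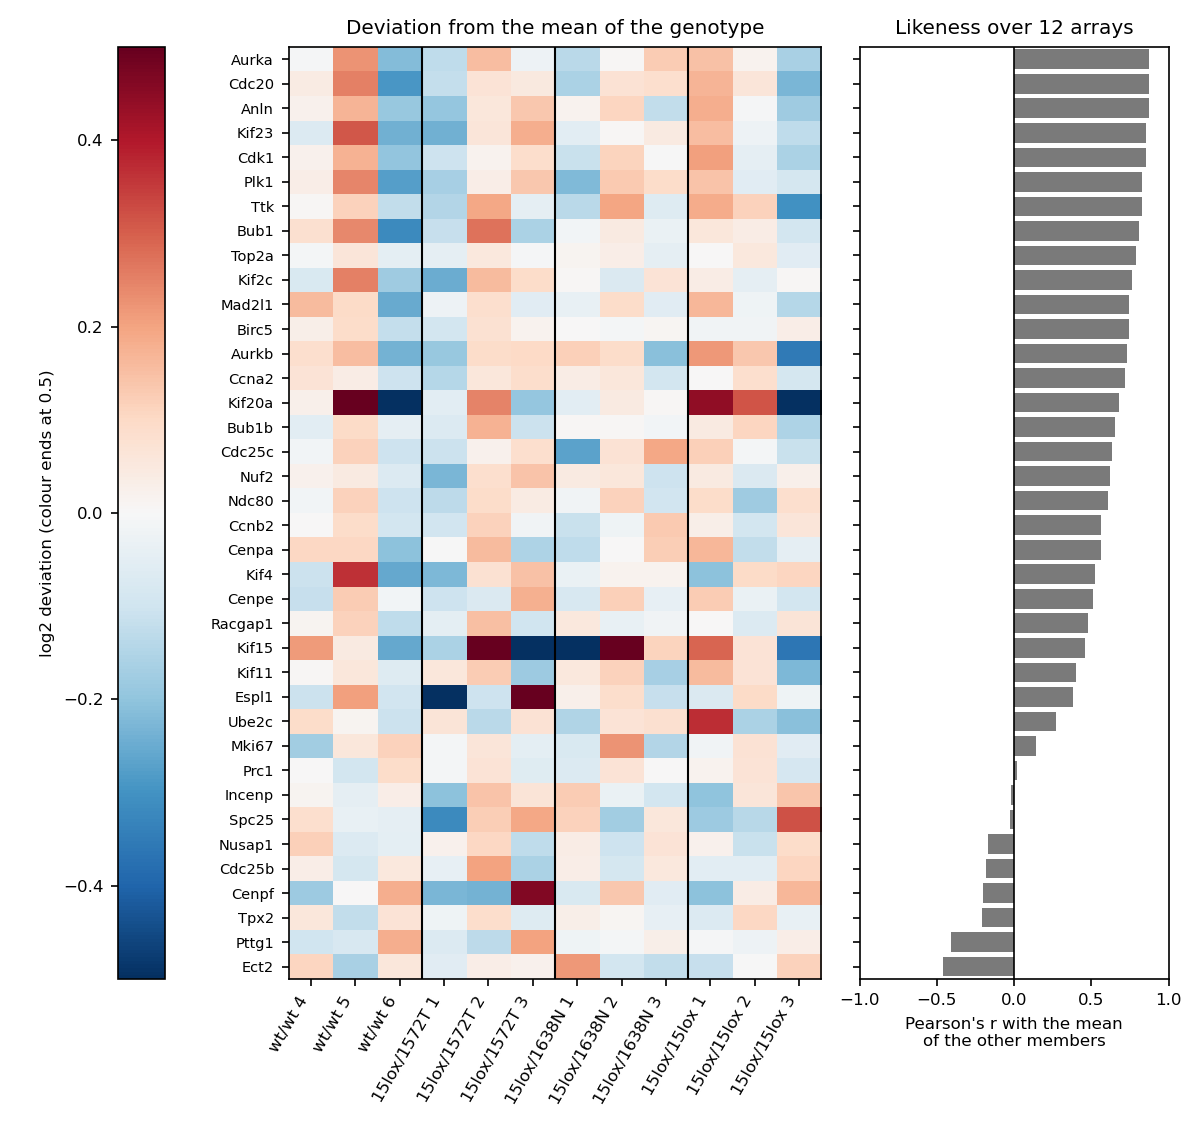
Left, deviation of each of the 38 genes from the mean of its genotype on 12 arrays (log2, colour ends at 0.5). Right, Pearson's r of each gene with the mean of the other 37 over the 12 arrays, from 0.87 for Aurka to -0.46 for Ect2; wt/wt array 5 is high and array 6 low for most genes in the upper part.

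Promoters of these genes are shown because the group moved together over arrays and its known control elements can be read in them. RefSeq (GRCm38.p6) gave promoters of 300 bases, 250 before to 50 after the start, for 32 of the 38. Letters of a CHR element, which are TTTGAA on either strand or its variant spelled TTCGAA, were found in 26 of 32 (81.2%), beside 17.5% of the 14453 measured genes with a promoter. CCAAT was found on either strand in 23 of 32 (71.9%), beside 42.0%, and both kinds together in 22 of 32 (68.8%), beside 7.1%. Over all 32851 promoters in the table the shares were 19.2%, 37.4% and 7.5%. No match of one kind overlapped a match of another. The 120 bases before the start follow for 5 genes with both kinds of letters there, for Kif23, which differed most from wt/wt, and for Pttg1, which had no match in its 300 bases. Capitals mark the CCAAT box and the CHR letters, each on either strand.
Cdc20, chr4:118437344-118437463, minus strand: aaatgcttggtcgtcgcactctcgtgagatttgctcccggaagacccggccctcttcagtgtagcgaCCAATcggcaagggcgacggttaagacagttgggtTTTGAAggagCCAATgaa
Cdk1, chr10:69352913-69353032, minus strand: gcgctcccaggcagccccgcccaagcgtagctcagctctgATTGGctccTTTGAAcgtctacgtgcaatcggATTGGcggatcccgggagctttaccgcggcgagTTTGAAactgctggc
Top2a, chr11:99024190-99024309, minus strand: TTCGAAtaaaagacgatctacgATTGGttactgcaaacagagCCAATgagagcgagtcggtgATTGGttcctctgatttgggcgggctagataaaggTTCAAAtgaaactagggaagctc
Kif11, chr19:37376262-37376381, plus strand: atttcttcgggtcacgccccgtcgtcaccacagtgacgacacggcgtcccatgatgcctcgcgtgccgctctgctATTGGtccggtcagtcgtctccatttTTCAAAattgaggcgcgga
Espl1, chr15:102296173-102296292, plus strand: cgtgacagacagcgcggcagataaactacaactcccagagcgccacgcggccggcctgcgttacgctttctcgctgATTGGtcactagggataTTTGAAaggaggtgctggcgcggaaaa
Kif23, chr9:61946800-61946919, minus strand: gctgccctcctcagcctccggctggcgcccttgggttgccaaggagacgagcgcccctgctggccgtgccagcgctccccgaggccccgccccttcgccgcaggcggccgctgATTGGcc
Pttg1, chr11:43425982-43426101, minus strand: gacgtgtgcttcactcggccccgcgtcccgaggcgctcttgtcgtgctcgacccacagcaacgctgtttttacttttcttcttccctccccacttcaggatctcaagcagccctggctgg
Both kinds of letters lay in this stretch in 7 of the 32 promoters. The share over all promoters was not counted for this shorter stretch, so the 7 cannot be set beside it. These 7 genes ran over the whole range of likeness to the other members, from Cdc20 (r = 0.87) and Cdk1 (0.85) through Top2a (0.79), Kif11 (0.40), Espl1 (0.38) and Ube2c (0.27) to Ect2 (-0.46). Mad2l1 and Birc5, each with r = 0.74, had no match in their 300 bases. Kif23 holds 1 CCAAT box here, and its TTTGAA lies elsewhere in the 300 bases. A match of letters is a description and not a binding site.

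No regulator of these promoters passed the test. Foxm1, the transcription factor of the G2/M wave, had differences of -0.04, 0.13 and -0.24 in 15lox/15lox, 15lox/1638N and 15lox/1572T, and Mybl2, which encodes B-Myb, 0.10, 0.39 and 0.14 (adjusted p of 0.448 or more for both). E2f1, which acts earlier at G1/S, gave 0.16, 0.45 and 0.35 (adjusted p = 0.765, 0.124 and 0.592), and its interval in 15lox/1638N ran from 0.12 to 0.78. Of 24 DREAM, MuvB and E2F genes 0 passed the test in any of these comparisons, beside 2.55%, 3.47% and 0.110% of all genes, with medians of 0.04, 0.18 and 0.03 beside -0.05, -0.03 and -0.03. With all 6 wt/wt arrays 1 was called higher in 15lox/15lox and 5 in 15lox/1638N, where 2.94% and 4.12% of all genes were. Cdkn1a, the CDK inhibitor p21, gave 0.16, -0.51 and -0.01, and 0 of 7 CDK inhibitors passed. Myc, a driver of growth, gave -0.24, 0.66 and 0.25 with an SE of 0.41.

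The list of other mitotic genes had 1 call. Of 92 measured, 0 passed in 15lox/15lox and in 15lox/1572T, beside 2.55% and 0.110% of all genes. In 15lox/1638N 1 of the 92 fell, beside 2.4% of all genes called lower. The medians of the 92 were -0.04 in 15lox/15lox, -0.06 in 15lox/1572T and 0.03 in 15lox/1638N. In 15lox/1638N 41 of the 92 lay below 0, beside 27 of the 38 and 57.2% of all genes. With all 6 wt/wt arrays 7 of the 92 were called there, all lower, beside 10% of all genes. The 1 gene called in the main fit was Kifc1, a minus-end kinesin that gathers spindle poles. It read 11.78, 11.89 and 11.91 in wt/wt and 11.41, 11.42 and 11.44 in 15lox/1638N (difference -0.44 ± 0.10, SE, adjusted p = 0.0422). The call ended without any 1 of wt/wt arrays 4, 5 and 6, 15lox/1638N arrays 1, 2 and 3 and 15lox/15lox array 1, where adjusted p was 0.0598 to 0.144. It also ended with sex, inferred from Xist, as a covariate (adjusted p = 0.0719). The difference itself stayed at -0.48 to -0.41 in these fits. Sgo1, which protects centromere cohesion, gave -0.04, -0.02 and -0.04. The DNA replication and G1/S genes had medians of 0.04, 0.24 and 0.03 in 15lox/15lox, 15lox/1638N and 15lox/1572T on the same arrays. In each, 0 of 38 passed the test, beside 2.55%, 3.47% and 0.110% of all genes. With all 6 wt/wt arrays, which are not independent, 3 were called higher in 15lox/1638N, beside 4.12% of all genes. The mean of these 38 genes in 15lox/1638N was 12.32, 12.31 and 12.10 against 11.97, 12.17 and 11.87 in wt/wt.

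Among 14 subunits and partners of the anaphase-promoting complex, 1 rose in all 3 comparisons. Cdc23, the subunit Apc8 of this complex, read 11.28, 11.39 and 11.28 in wt/wt. It read 12.07, 12.18 and 12.02 in 15lox/15lox, 12.30, 12.20 and 12.16 in 15lox/1638N, and 12.11, 12.19 and 12.03 in 15lox/1572T. The lowest mutant array lay above the highest wt/wt array. The differences were 0.77 ± 0.08, 0.90 ± 0.08 and 0.79 ± 0.08 (SE) with adjusted p = 0.000292, 0.000273 and 0.00496, and Cdc23 was 1 of the 0.110% of genes called in 15lox/1572T. Between mutant genotypes the differences in Cdc23 were -0.13, -0.02 and 0.11 (adjusted p = 0.594, 0.987 and 0.704). Of its other probe sets, one at 8.5 in wt/wt gave 0.20, 0.20 and 0.09, and one at 4.75 gave 0.47, 0.60 and 0.50. With the mean of all 3 the difference was 0.48, 0.57 and 0.46, and the call in 15lox/1572T ended (adjusted p = 0.192), as it did with only the arrays of that genotype and wt/wt, where the difference was still 0.79 (adjusted p = 0.106). The median over the 14 genes was 0.03, -0.02 and -0.11.

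Genes outside the 38 whose level most resembled their mean over the 12 arrays were Mapkapk5 (Pearson 0.93, Spearman 0.85), Kif22 (0.92, 0.89), Wdr90 (0.90, 0.81), Paics (0.89, 0.89), Acat1 (0.89, 0.82), Pimreg (0.89, 0.71), Cops3 (0.88, 0.85) and Cops8 (0.88, 0.84). They were picked for this likeness from all genes, so no p is given. Without the 2 arrays farthest from the median of the mean, r was 0.63 to 0.81. Kif22, a chromokinesin, is the only 1 of these 8 in the list of other mitotic genes.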

How the data were processed

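The submitters deposited 1 table of log2 values per probe set (the scale was read from the values), and their processing notes name RMA and mm9 with no role or version; filters are not stated in any source read. It holds 45101 probe sets: 34958 carry 1 gene symbol in the platform's annotation, 932 several, and 9211 are unlisted. Each gene took its probe set of highest mean, which left 18194 genes, with no filter and no further normalization. Genotypes were compared with limma 3.58.1 in R 4.3.3 (lmFit, eBayes, two-sided) on 12 arrays, wt/wt 4 to 6 and 9 mutant, with 8 residual degrees of freedom, Benjamini-Hochberg adjustment over all genes and a threshold of 0.05. The fit was also run on simulated data with independent noise for each gene and array. That leaves out variation shared between genes, and the outcome is not given here. Members, lists and the rule for named genes (fixed markers, the 2 highest and 2 lowest members per comparison, list genes past the threshold, the 8 most alike genes) were chosen with earlier results of these data known. Alternatives covered control arrays, arrays in the fit, probe sets, a level filter, normalization, eBayes options, array weights, sex, the replicate number and single arrays. Sex was not taken from the labels: arrays with Xist above 10 were counted as female and all others as male.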

Additional observations from a re-analysis of the deposited data

Results flagged for a closer look

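Mki67 on wt/wt array 4 stood apart from the other wt/wt arrays: it read 12.98 against 13.17 to 13.27 on the other 5, a gap of 0.66 of the range of the 6 arrays, where 0.625 is the limit. Of 39 sets of values tested this way this was the only 1, and chance flags about 1 in 20. Wild-type arrays 1 to 3 read the same value for Mki67, so the spread of the 6 arrays is understated.

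Kif20a, a central spindle motor, lay on opposite sides of the wt/wt mean in the hypomorphs: every array of 15lox/1638N was above it, by 0.13 on average, and every array of 15lox/1572T below it, by -0.29. The test of the difference of 0.42 between these genotypes gave adjusted p = 0.686, and the wt/wt arrays themselves read 11.28, 11.75 and 10.73.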

How the results depend on the processing

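The count of called members stayed at 0 under 21 alternatives in each of the 6 comparisons, except in 15lox/1638N against wt/wt, where it was 5 with all 6 wt/wt arrays, 3 with array weights, 1 with trend and robust eBayes and 1 with the replicate number as a block, all lower. In these 4 fits 1820, 2027, 515 and 703 of all 18194 genes were called lower, in the same order. Kif23 was past the threshold in each of these 4, with adjusted p = 0.00807, 0.00976, 0.0375 and 0.04. Under 17 alternatives the difference in the 38-gene mean ran from -0.13 to -0.02 in 15lox/15lox, -0.13 to -0.02 in 15lox/1638N and -0.16 to -0.05 in 15lox/1572T against wt/wt. The block fit used all 6 wt/wt arrays, of which 1 to 3 share numbers with the mutants; same-numbered arrays correlated by -0.13 to 0.43, over 0.1 in 7 of 18 pairs, so the number is not taken as a pairing. E2f1 passed in 15lox/1638N with all 6 wt/wt arrays (adjusted p = 0.0196) and array weights (0.0238). Precision rests on 3 arrays a group.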

Other observations

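Cdc23 lies on chromosome 18, as Apc does, with 8 measured protein-coding genes between them in RefSeq's order. The neighbourhood was looked at after the values of Cdc23 had been seen, and Cdc23 itself counts among the genes called there. The shares below are therefore no test of the region. Of the 40 measured genes nearest to Apc, 20 on each side, 3 were called in 15lox/15lox (7.5%), all higher: Cdc23, Nrep and Nme5. In 15lox/1638N 3 were called (7.5%), Cdc23, Nrep and Camk4, and in 15lox/1572T 1 (2.5%), Cdc23, again all higher. Over all genes 2.55%, 3.47% and 0.110% were called in these comparisons. Kif20a and Cdc25c, both mitotic genes, lie 7 and 10 measured genes away and were not called.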
